A study of Homo sapiens with 24 samples.

Results

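The AP-1 subunits were followed in 24 RNA-Seq libraries of 2 triple-negative breast cancer cell lines, Hs578T and SKBR7. The members were the genes that the deposited table names FOS, FOSB, FOSL1 and FOSL2 (FOS-type), JUN, JUNB and JUND (JUN-type) and ATF3, which makes 8 of 36481 genes. In each line, cells in 2D culture were given lapatinib (3.16 μM) together with PHA-767491 (1 μM), lapatinib alone (3.16 μM), PHA-767491 alone (1 μM) or the vehicle DMSO (0.1%) for 6 h, with 3 libraries in each of the 8 groups. Lapatinib inhibits the receptor tyrosine kinases EGFR and HER2, and PHA-767491 inhibits cdc7, which starts DNA replication, and CDK9, which releases RNA polymerase II into elongation. Each treatment was given to cells in triplicate in wells of a plate. Whether triplicates came from separate cultures or days is not given in the sources used here, so the spread between them may be technical. Each p-value rests on spread between these samples alone, and the test (limma) draws the spread of a gene toward that of genes of similar level. In Hs578T co-treatment against lapatinib, the spread of each gene was replaced by that of genes of similar level. Both lines are established and the RNA is from bulk cultures, in which fewer cells of a kind and less RNA per cell cannot be told apart.

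AP-1 is a transcription factor made of pairs of basic leucine zipper (bZIP) proteins. FOS-type proteins cannot pair with each other and bind DNA together with a JUN-type protein, whereas JUN-type proteins can also pair among themselves, and ATF3 pairs with JUN-type proteins and other bZIP factors. Growth factor signals through ERK and stress signals through JNK and p38 raise AP-1 at the level of transcription and by phosphorylation. FOS, FOSB, JUN, JUNB and ATF3 are immediate early genes, whose transcripts are made within minutes and decay fast. FOSL1 encodes FRA-1, which is known for high levels in triple-negative and mesenchymal breast cancer cells, and JUND is generally expressed without a stimulus.

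The members lay on 5 chromosomes in the coordinates of the deposited table (GRCh38). FOS was at chr14:75278774-75282230, FOSB at chr19:45467995-45475179, FOSL1 at chr11:65892049-65900573 and FOSL2 at chr2:28392448-28417312. JUN was at chr1:58780788-58784327, JUNB at chr19:12791496-12793315, JUND at chr19:18279760-18281622 and ATF3 at chr1:212565334-212620777. The canonical transcripts of the 3 JUN-type genes have 1 exon each, and those of the other 5 members have 4. Exons of JUNB overlap those of HOOK2 on the opposite strand, and whether counting used strand is not given in the sources used here, so JUNB values may hold reads of HOOK2. AP-1 binds the 7-base element TGACTCA, and pairs with ATF proteins also bind TGACGTCA and the variant TGACATCA. RefSeq windows (GRCh38.p14) of 300 bases, 250 before and 50 after a RefSeq start, were given for 7 members and searched for these letters on both strands. A RefSeq start can differ from that in the deposited table. The JUN stretch below and the FOSL2 window lie inside these genes as placed above. TGACATCA was found in the windows of JUN and ATF3 (in 2.61% of 35116 windows of all genes), TGACGTCA in that of JUND (1.85%) and TGACTCA in that of FOSL2 (4.95%). The stretches of JUN, ATF3 and JUND are shown because these members passed a test between lines or treatments in the results below and their windows hold an element of their own family, which is in capitals. They are read 5′ to 3′ on the gene's strand, at chr1:58784096-58784125 (minus strand) for JUN, chr1:212565258-212565317 (plus strand) for ATF3 and chr19:18281789-18281848 (minus strand) for JUND.
JUN: aggccttggggTGACATCAtgggctatttt
ATF3: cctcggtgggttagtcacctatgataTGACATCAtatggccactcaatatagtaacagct
JUND: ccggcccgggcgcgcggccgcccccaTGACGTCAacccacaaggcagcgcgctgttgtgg
These matches are a description of the letters and no measure of binding.

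Expression is given on the log2 scale of the deposited table, in which library sizes were scaled by TMM and the libraries then quantile normalised. Read totals are unknown, and the 9967 to 23320 genes listed per library are the only measure of depth. Results are also given without 6 libraries that earlier results of these data put in doubt, with the others ranked anew (quantile normalised again over the genes they all list). These were Hs578T DMSO I and II, Hs578T PHA-767491 I and III, SKBR7 lapatinib II and SKBR7 co-treatment I, and 5 of them listed only 9967 to 18090 genes against 20287 to 23282 in the other 18. KRT8, an epithelial keratin, reached 9.71 and 9.47 in Hs578T PHA-767491 III and DMSO II, against at most 5.08 in the other Hs578T libraries and at least 10.8 in every SKBR7 library. Leaving the 6 out keeps 1 Hs578T library each of PHA-767491 and DMSO, whose spread is then taken from the other groups. Under lapatinib all 5 mesenchymal markers (VIM, CDH2, ZEB1, FN1 and SPARC) were higher in Hs578T than in SKBR7, and 3 of 5 epithelial ones (CDH1, KRT8 and KRT18) were lower. The other epithelial markers, EPCAM and KRT19, were below 0 on the log2 scale or not listed in all SKBR7 libraries and did not pass. Of the 5 epithelial markers, KRT8 was higher (0.90) and KRT18 lower (-0.995) under co-treatment than under lapatinib in Hs578T, and of the 5 mesenchymal ones SPARC was higher (0.66), and their part in the results was not tested. ESR1 and PGR were below 1 on the log2 scale or not listed in all libraries, whereas ERBB2 was listed in all 24, at 4.16 to 6.97. All 8 members passed the filter of at least 3 libraries in every comparison. FOS and FOSB were listed in 23 libraries, all but Hs578T DMSO I, and the other 6 members in all 24.

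Which subunits made up AP-1 mRNA was compared per kilobase of annotated exon, as the share of a member in the linear sum of all 8. By this measure FOSL1 was the largest component in every group. It made up 60.1% ± 2.60 (SD, n = 3) under co-treatment in Hs578T, against 44.7% ± 1.60 under lapatinib, 51.4% ± 6.31 under PHA-767491 and 44.5% ± 1.03 under DMSO. In SKBR7, FOSL1 made up 67.6% ± 4.03 under co-treatment, against 44.6% ± 4.43 under lapatinib, 54.1% ± 1.06 under PHA-767491 and 46.0% ± 3.06 under DMSO. The share of FOSL1 in every SKBR7 co-treated library lay above that in all other SKBR7 libraries, while in Hs578T the lowest co-treated library (57.1%) lay below PHA-767491 I (58.6%), a library in doubt. JUN was the second component in Hs578T, with 18.5% ± 1.19 under co-treatment and 26.9% ± 0.831 under lapatinib. In SKBR7, JUN made up only 7.71% ± 0.277 under co-treatment and 10.0% ± 3.37 under lapatinib, and FOSL2 (12.2% ± 0.648 and 20.0% ± 3.24) and JUNB (9.02% ± 2.86 and 17.0% ± 5.22) came before it. These 3 SKBR7 components overlapped in their spread under lapatinib, apart from JUN and FOSL2. The order rests on the division by length: without it FOSL1 was still first under co-treatment, with 41.5% in Hs578T (JUN 24.5%) and 47.2% in SKBR7 (FOSL2 32.2%). Under lapatinib JUN then came first in Hs578T (32.2%, FOSL1 27.8%) and FOSL2 in SKBR7 (44.7%, FOSL1 26.4%). JUN also came first in Hs578T DMSO (31.0%, FOSL1 28.3%), and FOSL2 in SKBR7 PHA-767491 (38.2%, FOSL1 33.9%) and DMSO (42.2%, FOSL1 28.1%).

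The share of JUND was lower under co-treatment in both lines. JUND made up 1.39% ± 0.648 of the sum under co-treatment in Hs578T, against 6.14% ± 1.16 under lapatinib, 3.74% ± 1.34 under PHA-767491 and 8.51% ± 3.43 under DMSO. In SKBR7 it made up 1.13% ± 0.811 under co-treatment, against 4.59% ± 1.53 under lapatinib, 2.33% ± 0.519 under PHA-767491 and 5.61% ± 0.362 under DMSO. In both lines the share of JUND in each co-treated library was below that in all 9 other libraries of the line. Shares of the 3 types followed FOSL1, with FOS-type members at 69.0% ± 3.01 under co-treatment and 56.6% ± 2.23 under lapatinib in Hs578T, and at 80.1% ± 4.24 and 65.2% ± 6.46 in SKBR7. Shares are a description and were not tested.

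**Figure D1:**
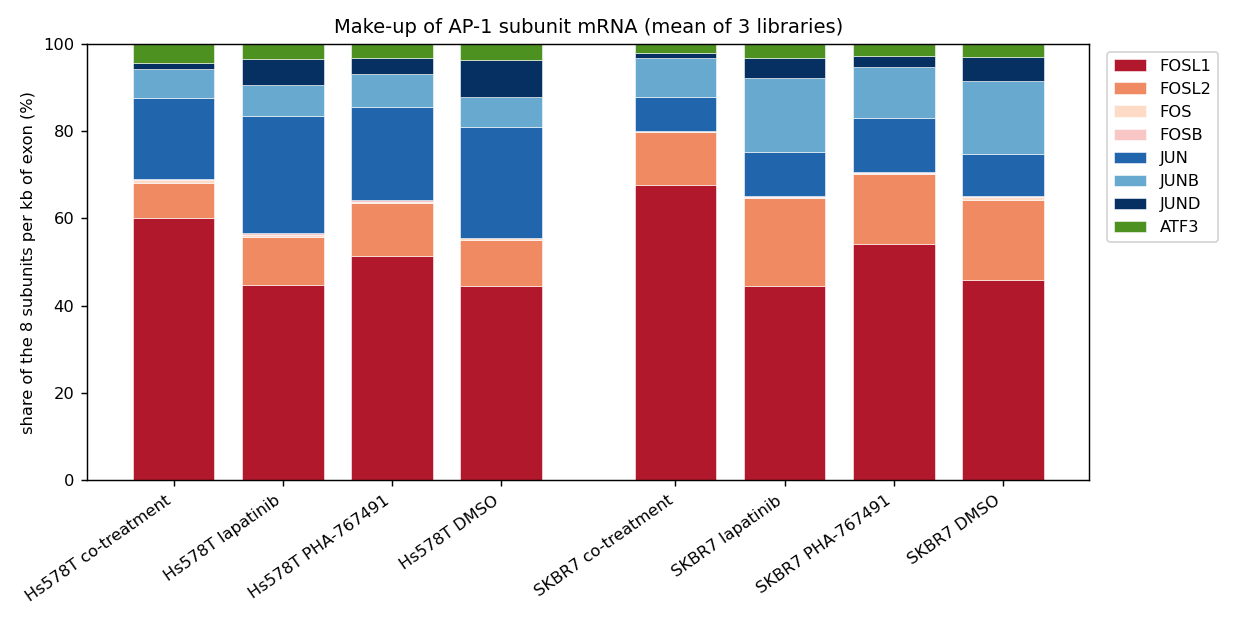
Share of each AP-1 subunit in the summed linear value per kilobase of annotated exon of the 8 members (%), as the mean of 3 libraries, for the 4 treatments of Hs578T (left) and SKBR7 (right). FOSL1 (dark red) took 60.1% and 67.6% under co-treatment, and JUND (dark blue) 1.39% and 1.13%.

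FOSL1 was higher under co-treatment than under lapatinib in both lines. Its log2 values under co-treatment in Hs578T were 8.57, 8.47 and 8.48, against 7.62, 7.58 and 7.88 under lapatinib, 8.14, 7.76 and 7.32 under PHA-767491 and 6.98, 6.94 and 7.70 under DMSO. In SKBR7 the co-treated libraries had 7.42, 7.85 and 7.92, against 6.35, 6.48 and 6.87 under lapatinib, 7.06, 7.08 and 6.90 under PHA-767491 and 6.64, 6.90 and 7.07 under DMSO. In both lines every co-treated library lay above all 9 others of its line. Against lapatinib, FOSL1 rose by 0.81 (SE 0.09, 1.76-fold) in Hs578T, with an adjusted p = 7.75e-16 from limma on the 6 libraries of these groups. As for every gene in this comparison, the SE came from genes of similar level and not from the spread of FOSL1 itself. In SKBR7 it rose by 1.16 (SE 0.21, 2.24-fold), with a limma adjusted p = 0.00639 on the 12 libraries of the line. The test passed 29.3% of 21814 genes in Hs578T (18.3% higher, 11% lower), where 3 of the 8 members passed, 2 higher and 1 lower. It passed 0.909% of 21450 genes in SKBR7 (0.196% higher, 0.713% lower), where FOSL1 was the only member to pass. Without the libraries in doubt the SKBR7 difference was 1.26, and it passed when each of the 12 libraries was left out in turn (adjusted p 0.00169 to 0.0470). The Hs578T call was lost with all 12 libraries in the fit (adjusted p = 0.987), and the SKBR7 call without a variance trend (0.259).

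**Figure D2:**
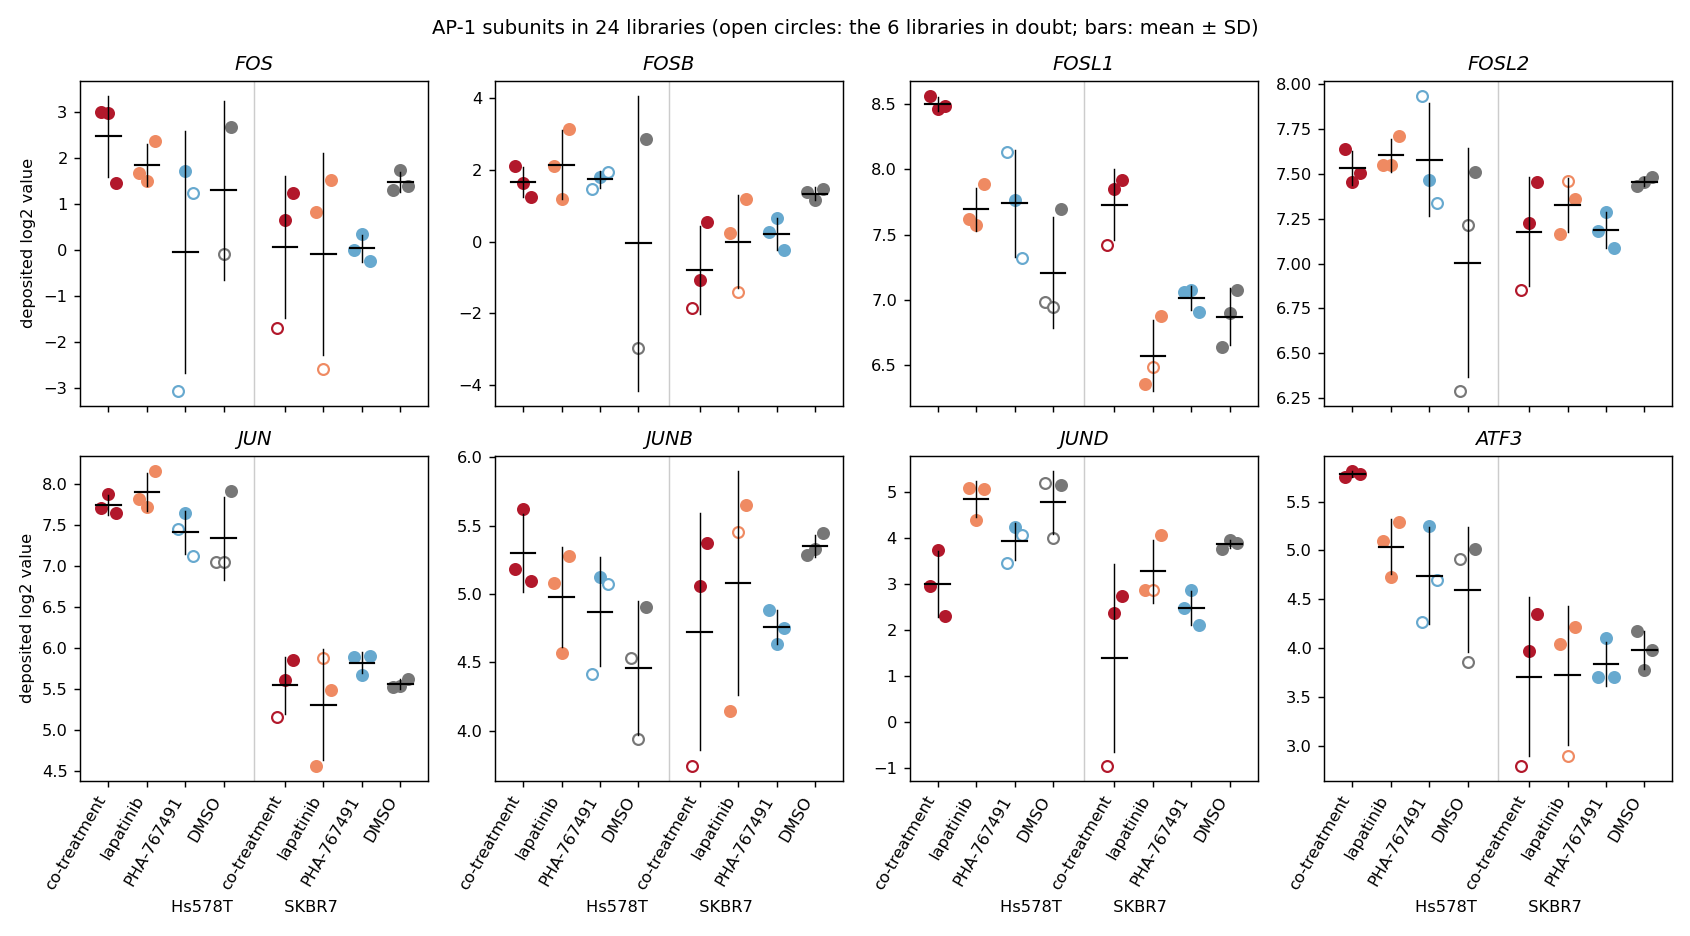
Deposited log2 values of the 8 AP-1 subunits in each library, by treatment, in Hs578T (left of the grey line) and SKBR7 (right). Points are libraries, open where the library is in doubt, and bars show the mean ± SD of 3 libraries (2 for FOS and FOSB in Hs578T DMSO); the co-treated FOSL1 libraries stand above the rest in both lines, and those of ATF3 in Hs578T.

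JUND, the JUN-type member known for restraining growth in several cell types, was lower under co-treatment. Its log2 values in Hs578T were 2.95, 3.73 and 2.31 under co-treatment, against 5.08, 4.39 and 5.06 under lapatinib, 3.46, 4.24 and 4.07 under PHA-767491 and 5.19, 3.99 and 5.15 under DMSO. In SKBR7 they were -0.97, 2.37 and 2.74 under co-treatment, against 2.87, 2.88 and 4.07 under lapatinib, 2.47, 2.86 and 2.11 under PHA-767491 and 3.76, 3.95 and 3.88 under DMSO. The co-treated libraries lay below all lapatinib and all DMSO libraries in both lines and overlapped those of PHA-767491 in both. Against lapatinib in Hs578T, JUND fell by 1.85 on the log2 scale (SE 0.23) to 0.278 times its level, with a limma adjusted p = 2.30e-13. This SE came from the variance trend over all genes, while JUND itself had an SD of 0.714 under co-treatment and 0.392 under lapatinib. In SKBR7 the difference was of the same size, -1.89 (SE 0.76, 95% interval -3.47 to -0.31), but it did not pass (adjusted p = 0.307). There 1 library carried much of it: without co-treatment I, a library in doubt, it was -0.72. Without all 6 libraries in doubt, the difference was -0.98 and passed (adjusted p = 0.00106), where 31.1% of genes passed. In Hs578T the call was lost with all 12 libraries (adjusted p = 0.844) and without a variance trend (0.0586).

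ATF3, a stress-induced factor that often represses transcription, rose against lapatinib in Hs578T and did not pass in SKBR7, without the lines being separated in the test of their difference. Its log2 values in Hs578T were 5.76, 5.81 and 5.79 under co-treatment, against 5.09, 4.73 and 5.29 under lapatinib, 4.27, 5.25 and 4.70 under PHA-767491 and 4.91, 3.86 and 5.02 under DMSO. Every co-treated library lay above the 9 others. ATF3 rose by 0.75 (SE 0.15, 1.68-fold) against lapatinib with a limma adjusted p = 7.14e-06, lost with all 12 libraries (0.987) and without a variance trend (0.0663). In SKBR7 its values were 2.80, 3.97 and 4.36 under co-treatment, against 4.05, 2.91 and 4.22 under lapatinib, 3.71, 4.10 and 3.71 under PHA-767491 and 4.17, 3.78 and 3.98 under DMSO. These groups overlapped, and the difference from lapatinib was -0.01 (95% interval -1.03 to 1.00), which turned positive (0.15, 0.16 and 0.04) with libraries centred on their medians, ranked anew, or ranked anew without those in doubt. The difference between the lines was itself tested and ATF3 did not pass (0.76, SE 0.61, adjusted p = 0.971). Without the libraries in doubt the ATF3 difference between the lines was 0.64 and passed.

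The other 5 members did not pass against lapatinib in either line with the values as deposited. FOS, the founding member induced by serum and growth factors, had 2.99, 2.96 and 1.45 under co-treatment and 1.66, 1.51 and 2.37 under lapatinib in Hs578T, a log2 difference of 0.62 (SE 0.45). In SKBR7, FOS had -1.69, 0.65 and 1.24 under co-treatment and 0.82, -2.59 and 1.52 under lapatinib, a difference of 0.15 (SE 1.03). Both low SKBR7 values came from libraries in doubt. FOSB, a close relative of FOS, differed by -0.49 (SE 0.49) in Hs578T and -0.79 (SE 0.91) in SKBR7. With libraries ranked anew the Hs578T difference of FOSB was -0.80 and passed (limma adjusted p = 0.0407). FOSL2, which encodes FRA-2, was among the steadiest members, with a difference of -0.07 (SE 0.10, 95% interval -0.27 to 0.13) in Hs578T and -0.15 (SE 0.19, -0.54 to 0.24) in SKBR7. JUN, the founding JUN-type member, differed by -0.16 (SE 0.10, -0.35 to 0.04) in Hs578T and by 0.23 (SE 0.32, -0.43 to 0.89) in SKBR7. Without Hs578T lapatinib II, JUN differed by -0.25 there and passed (limma adjusted p = 0.0406). Without SKBR7 libraries in doubt the JUN difference was 0.67 and passed. JUNB, a weaker activator that can oppose JUN, differed by 0.32 (SE 0.16, adjusted p = 0.120) in Hs578T and by -0.36 (SE 0.42) in SKBR7. The median difference over the 8 members was 0.13 in Hs578T and -0.08 in SKBR7, and over all genes tested 0.18 and -0.08.

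**Figure D3:**
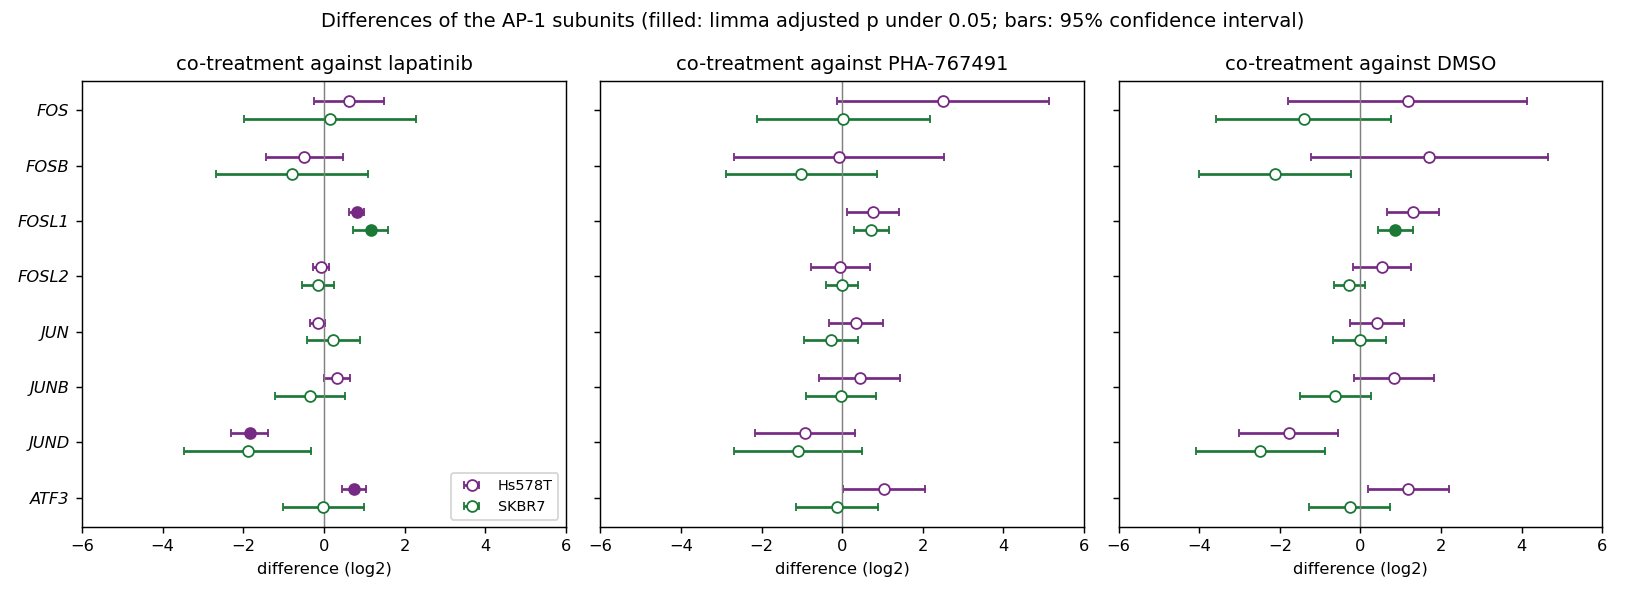
Log2 differences of the 8 AP-1 subunits between co-treatment and lapatinib, PHA-767491 or DMSO, in Hs578T (purple) and SKBR7 (green), with 95% confidence intervals from limma and filled points for an adjusted p under 0.05. The 5 filled points are FOSL1 against lapatinib in both lines and against DMSO in SKBR7, and JUND and ATF3 against lapatinib in Hs578T.

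Against PHA-767491 and DMSO, FOSL1 in SKBR7 against DMSO was the only member to pass. These comparisons share the co-treated libraries with those above. In Hs578T, co-treatment differed from PHA-767491 by 0.77 for FOSL1 (SE 0.30), -0.92 for JUND (SE 0.58) and 1.04 for ATF3 (SE 0.47), each with a limma adjusted p = 0.801, and 0 of the 8 members and 0% of genes passed. From DMSO it differed by 1.30 for FOSL1 (SE 0.30), -1.78 for JUND (SE 0.57) and 1.19 for ATF3 (SE 0.46), with limma adjusted p of 0.189, 0.189 and 0.193, and again 0% of genes passed. At an unadjusted p under 0.05 there were 1202 genes against PHA-767491 and 4592 against DMSO. Over all genes the median difference from DMSO was 0.92, and with every library centred on its median the differences were 0.18 for FOSL1, -2.90 for JUND and 0.07 for ATF3. Without the libraries in doubt, 3 members passed against PHA-767491 (FOSL1 0.75, JUND -1.23, ATF3 0.55) where 23.9% of genes did. Against DMSO, 4 did (FOSL1 0.78, JUND -2.25, ATF3 0.72 and FOSB -1.36) where 37.1% of genes did.

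In SKBR7, FOSL1 rose by 0.86 (SE 0.21) against DMSO, with a limma adjusted p = 0.0386, as the only member where 1.79% of genes passed (0.0911% higher, 1.7% lower). This call was lost, with adjusted p of 0.0671 to 0.199, when 1 of 7 libraries was left out, namely co-treatment II and each library of PHA-767491 and DMSO. The difference without each of those ranged between 0.75 and 0.96. JUND differed from DMSO by -2.48 (SE 0.77, adjusted p = 0.100), and by -1.31 without co-treatment I. FOS and FOSB also had every co-treated library below every DMSO library, with differences of -1.41 (SE 1.04) and -2.13 (SE 0.90) that did not pass. Against PHA-767491, 0 members passed where 0.464% of genes did. FOSL1 was 0.72 higher (SE 0.21, adjusted p = 0.165) and every co-treated library lay above every PHA-767491 library. JUND differed from PHA-767491 by -1.10 with all libraries (SE 0.76), by 0.07 without co-treatment I and by 0.03 without those in doubt, so its direction depended on that library. FOSL1 (0.87) and FOS (0.87) passed without the libraries in doubt, where 31% of genes did. Over all genes the median difference from DMSO was -0.48. Centred on library medians, the differences from DMSO were 1.41 for FOSL1 and -1.93 for JUND, and both passed. FOSL1 (1.07), JUND (-1.06) and FOSB (-1.16) passed against DMSO without the libraries in doubt, where 35.3% of genes did.

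**Figure D4:**
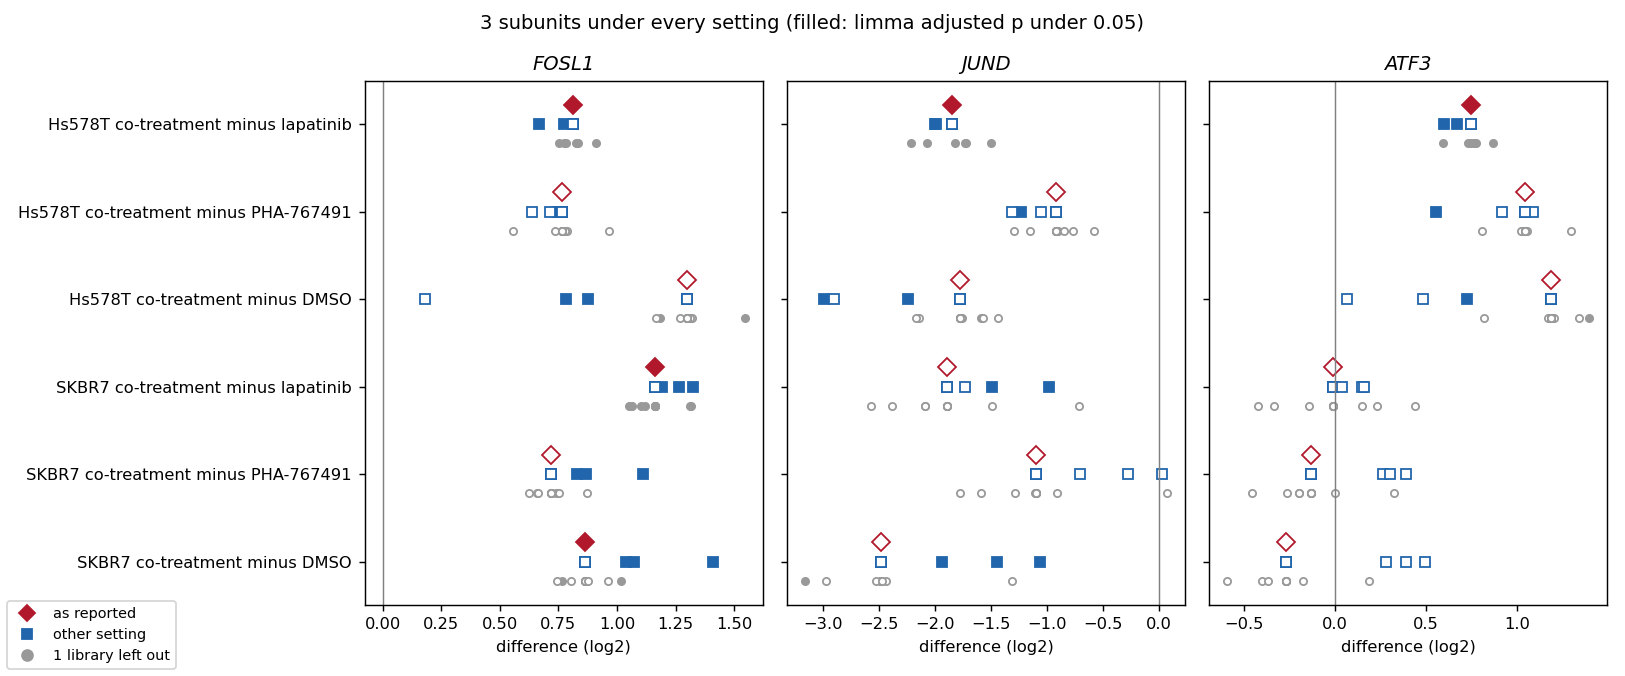
Log2 differences of FOSL1, JUND and ATF3 between co-treatment and each of lapatinib, PHA-767491 and DMSO, as reported (diamonds), under every other setting tried (squares) and with each library left out in turn (circles), filled for a limma adjusted p under 0.05. FOSL1 stayed above 0 in all 6 comparisons and settings, JUND was below 0 except in SKBR7 against PHA-767491 (up to 0.07), and ATF3 lay on both sides of 0 in SKBR7.

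With all 12 libraries of a line in the fit, neither drug alone was separated from DMSO in the AP-1 subunits. With lapatinib, the 8 members differed from DMSO by 0.07 (JUND) to 2.20 (FOSB) in Hs578T and by -1.56 (FOS) to -0.13 (FOSL2) in SKBR7. With PHA-767491 they differed by -1.34 (FOS) to 1.79 (FOSB) in Hs578T and by -1.44 (FOS) to 0.26 (JUN) in SKBR7. None of these passed limma, in which 0% of genes passed in each of the 4 comparisons, with 468 to 1920 genes at an unadjusted p under 0.05. In SKBR7 the PHA-767491 libraries lay below all DMSO libraries for 5 members, FOS, FOSB, FOSL2, JUNB and JUND, and above them for 1, JUN. The share of all genes that separated in this way was not counted, and the median difference over all genes was -0.18. JUND differed by -1.38 (SE 0.77), and without the libraries in doubt it differed by -1.09 and passed where 2.29% of genes did. With only the PHA-767491 and DMSO libraries of SKBR7 in the fit, JUNB and JUND passed as lower, where 438 of 22243 genes passed. Neither of these groups holds a library in doubt. The departure of co-treatment from the sum of both single effects was 0.28 (SE 0.42) for FOSL1 in Hs578T and 1.02 (SE 0.29) in SKBR7, and 0 members and 0% of genes passed in either line. Without the libraries in doubt the departure of FOSL1 was 0.74 in Hs578T, where 1 library each of PHA-767491 and DMSO was left, and 1.06 in SKBR7. In SKBR7 FOSL1 alone of the members then passed, where 16.1% of genes did.

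By size alone, the group mean under co-treatment was at least 0.5 above those under both drugs for FOSL1, ATF3 and FOS in Hs578T (25.1% of 14843 genes) and for FOSL1 in SKBR7 (2.34% of 14204). It was at least 0.5 below both for JUND in Hs578T (10.9%) and for JUND and FOSB in SKBR7 (23.4%), though for 0 members in SKBR7 without the libraries in doubt. Within a library, FOSL1 and JUND moved apart. FOSL1 minus JUND was 5.61, 4.73 and 6.18 under co-treatment in Hs578T, against 2.54, 3.18 and 2.82 under lapatinib, 4.68, 3.53 and 3.25 under PHA-767491 and 1.79, 2.95 and 2.55 under DMSO. In SKBR7 it was 8.39, 5.48 and 5.18 under co-treatment, against 3.48, 3.61 and 2.80 under lapatinib, 4.58, 4.22 and 4.79 under PHA-767491 and 2.87, 2.95 and 3.19 under DMSO. Each co-treated library was above the 9 others of its line in this log2 difference, which an equal shift of all genes in a library leaves unchanged. The pair joins a member that rose and 1 that fell in these same libraries, so the gap is a description and no separate support. Its highest value, 8.39, was that of SKBR7 co-treatment I, a library in doubt. Over the 18 libraries not in doubt, after the mean of a line was subtracted, FOSL1 and JUND had a Pearson r of -0.58, FOSL1 and ATF3 0.59, and FOSB and JUND 0.72. Libraries of a treatment share that treatment, so these values describe the groups as much as the libraries.

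The lines differed in which subunits they held. Under lapatinib, 4 of the 8 members were higher in Hs578T than in SKBR7 in limma and 0 were lower, where 21.8% of genes passed (13.2% higher, 8.6% lower). JUN had the largest gap, with 7.82, 7.72 and 8.16 in Hs578T and 4.55, 5.88 and 5.48 in SKBR7, a log2 difference of 2.59 (SE 0.31, 6.04-fold, adjusted p = 9.90e-07). JUND was higher by 1.57 (SE 0.47, adjusted p = 0.0179), ATF3 by 1.31 (SE 0.44, adjusted p = 0.0335) and FOSL1 by 1.12 (SE 0.24, adjusted p = 0.00145). The JUN gap kept its size and call without each of the 6 libraries in turn (2.22 to 2.88), and FOSL1 passed each time too (1.02 to 1.28). JUND lost its call without Hs578T lapatinib I (1.45) or III (1.46) or SKBR7 lapatinib I (1.37), and ATF3 without Hs578T lapatinib I (1.29), II (1.47) or III (1.19). FOSB was 2.15 higher (SE 0.93) without passing, FOS by 1.93 (SE 1.02) and FOSL2 by 0.28 (SE 0.22) likewise, and JUNB differed by -0.11 (SE 0.41). Without a variance trend JUN alone passed, and without the libraries in doubt 6 members did, where 56.8% of genes did. None of the 8 members passed for a difference between the lines in co-treatment against lapatinib, where 0.021% of 19033 genes did. At an unadjusted p under 0.05 there were 820 genes. That difference was -0.35 (SE 0.27, 95% interval -0.91 to 0.21) for FOSL1, 0.05 (SE 1.08, -2.20 to 2.30) for JUND and -0.39 (SE 0.40) for JUN. Without the libraries in doubt it passed for FOSL1 (-0.50), JUN (-0.86) and ATF3 (0.64), where 13% of genes passed.

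Other bZIP factors that can pair with AP-1 subunits were mostly lower where they passed against lapatinib. In Hs578T 1 of 11 tested was higher and 3 were lower, where 18.3% of all genes were higher and 11% lower, with a median difference of -0.20 over the list. The Hs578T calls on this list and the lists that follow came from the fit of 6 libraries, with the spread taken from genes of similar level. With all 12 Hs578T libraries in the fit 0 of 22159 genes passed, and without a variance trend 1556 of 21814 did. ATF4, the activator of the amino acid and unfolded protein responses, fell in both lines. Its log2 values were 6.48, 6.68 and 6.21 under co-treatment and 7.49, 7.16 and 7.26 under lapatinib in Hs578T (-0.85, SE 0.11, limma adjusted p = 1.22e-12). In SKBR7, ATF4 had 7.29, 7.78 and 7.62 under co-treatment and 8.53, 8.74 and 8.67 under lapatinib (-1.08, SE 0.15, limma adjusted p = 0.000556), the only 1 of 11 to pass where 0.909% of all genes did. CREB1, the cAMP response factor, fell by 0.76 and ATF2, a JUN partner activated by p38 and JNK, by 0.47 in Hs578T. MAFF, a small MAF protein without an activation domain, rose by 0.84 in Hs578T and differed by -0.79 (SE 0.67) in SKBR7.

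Of 20 kinases and factors upstream of AP-1, 5 were higher and 7 lower under co-treatment than under lapatinib in Hs578T (median -0.09), where 18.3% and 11% of all genes were. In SKBR7 0 passed in limma (median -0.08), where 0.909% of all genes did, and 1 of the 20 had an unadjusted p under 0.05. MAPK14, which encodes the stress kinase p38 alpha, fell by 1.41 in Hs578T, and ELK4, a ternary complex factor at the FOS promoter, by 1.03. MAP3K1, a kinase upstream of JNK, rose by 0.89. In SKBR7, MAPK14 differed by -0.47 (SE 0.27), ELK4 by -0.20 (SE 0.42) and MAP3K1 by -0.06 (SE 0.61).

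Known AP-1 target genes moved both ways in Hs578T, where 8 of 21 tested were higher under co-treatment than under lapatinib and 5 were lower (median 0.39), against 18.3% and 11% of all genes. With all 12 Hs578T libraries in the fit none of these calls was kept, as 0 of 22159 genes passed. MMP3, a stromelysin, had values of 5.48 to 5.50 in the 3 libraries under co-treatment and 3.98, 3.81 and 4.33 under lapatinib, and rose by 1.45 (SE 0.18). MMP1, the interstitial collagenase, had 4.30, 4.58 and 4.12 under co-treatment and 3.11, 2.25 and 3.48 under lapatinib, and rose by 1.38 (SE 0.26). These collagen- and matrix-cleaving enzymes could not be tested in SKBR7, where no lapatinib library listed either. IL11, a cytokine of the IL-6 family, fell by 2.66 (SE 0.37) in Hs578T, with 1.17, 1.92 and 0.96 under co-treatment and 3.98, 3.84 and 4.21 under lapatinib. In SKBR7, IL11 had -0.30, 3.52 and 3.34 under co-treatment and 5.95, 6.22 and 6.15 under lapatinib, and fell by 3.92 (SE 0.62). The lowest of these values was that of co-treatment I, a library in doubt, and the other co-treated libraries also lay below all lapatinib libraries. MT2A, a metallothionein that binds zinc, fell by 1.67 (SE 0.09) in Hs578T and by 1.25 (SE 0.20) in SKBR7. PLAU, the urokinase plasminogen activator, fell by 0.36 (SE 0.09) in Hs578T and by 0.70 (SE 0.17, limma adjusted p = 0.04998) in SKBR7. In SKBR7, IL11, MT2A and PLAU were the 3 of 18 targets that passed, all lower (median -0.16), and 0 were higher, where 0.713% of all genes were lower and 0.196% higher.

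**Figure D5:**
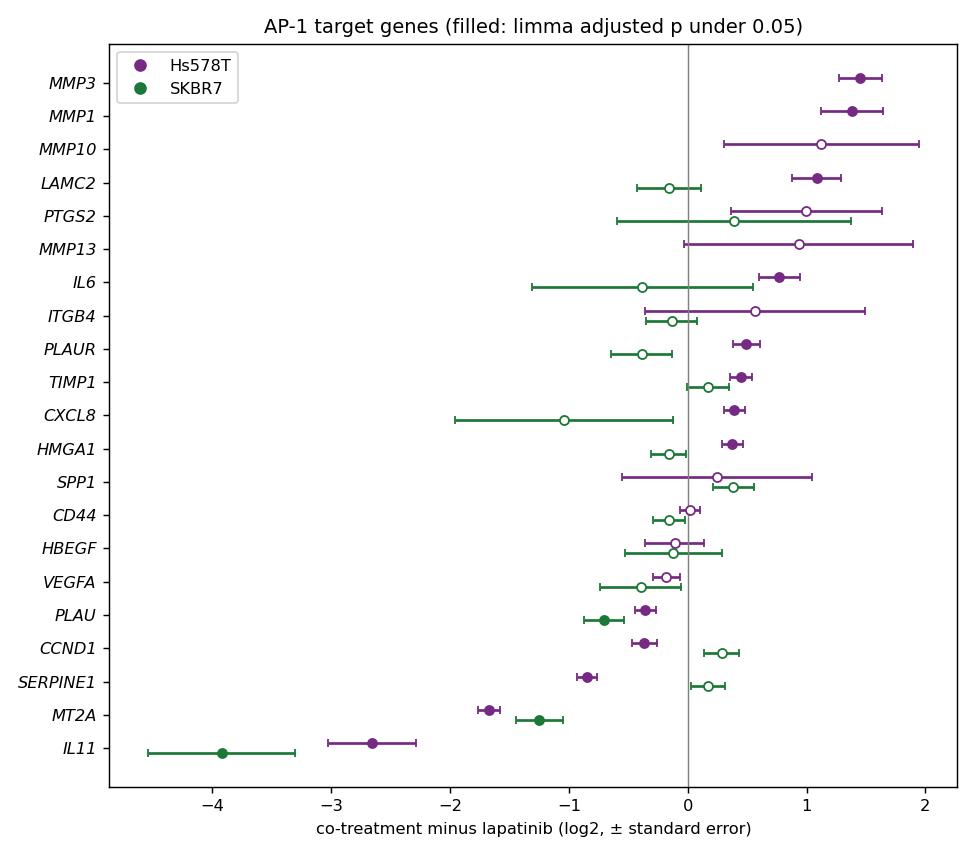
Log2 differences between co-treatment and lapatinib, ± standard error, of the AP-1 target genes tested in Hs578T (purple, 21 genes) and of those among them that could be tested in SKBR7 (green), filled for a limma adjusted p under 0.05. MMP3 and MMP1 are at the top with 1.45 and 1.38, and MT2A and IL11 at the bottom fell in both lines.

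The genes whose pattern over the 18 libraries not in doubt was most like that of a member were taken from 7051 genes listed in all of them with a mean above the median, after the mean of a line was subtracted. For FOSL1 these were ZFP36L1 (Pearson r 0.98), TUSC2 (0.96) and RBM15 (0.95). For ATF3 they were BRE (0.96), HSPB11 (0.94) and CCNDBP1 (0.94). For JUN the values were lower, with 0.78 for TGS1 and 0.77 for HGS. These correlations follow the treatment groups that the libraries share and are a description.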

How the data were processed

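RNA-Seq libraries were made with a stranded mRNA kit. The authors counted reads per Ensembl 84 gene with featureCounts 1.4.6 on GRCh38, scaled them by TMM (edgeR) and quantile normalised them, and deposited log2 values, left blank for genes a library does not list. The sources name different aligners (HiSat2 and STAR). From 36517 lines, 36 repeated identifiers were dropped. Quantile normalisation gave all 24 libraries the same highest value, 12.852, and hides differences in total RNA. Differences were fitted with limma 3.58.1 (R 4.3.3) with a variance trend, on genes listed in at least 3 libraries, with Benjamini-Hochberg adjusted p under 0.05 over all genes tested. The fits took 6 libraries for Hs578T co-treatment against lapatinib and for the lines under lapatinib. The difference between the lines took the 12 libraries of co-treatment and lapatinib, and the other fits all 12 of a line. For Hs578T co-treatment against lapatinib the choice was made with earlier results of these data known, as the other Hs578T groups hold libraries in doubt. In that fit the spread of a gene was taken from the trend. Missing values were left missing. All 8 members are named, and from each list up to 4 genes that passed against lapatinib in a line, by the size of the difference. Some genes that this rule or the likeness of patterns would name are not reported here. The marker genes named were added to this after their values were seen. Exon lengths (union of annotated exons) came from GENCODE 44. The code was tested on simulated data. Members and lists were chosen with earlier results of these data known. Alternatives were other filters, scalings, sample sets, no variance trend, a replicate block, each library left out, and leaving out the libraries in doubt.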

Additional observations from a re-analysis of the deposited data

How the results depend on the processing

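Quantile-normalised values without read numbers limit what can be said of low genes such as FOS and FOSB, and 2 of the 3 libraries of Hs578T DMSO and of Hs578T PHA-767491 are in doubt. Of the members' values under the alternatives, 1974 kept direction and call or were not called, 51 gained a call, 25 lost one and 1 reversed. Most of the 1974 belong to results that did not pass in the first place, and the 25 losses fell on the few that did. The one reversed was FOSB in Hs578T against DMSO, -1.36 without the 6 libraries in doubt and 1.71 with all; the cause was not tested. The number of members passing in Hs578T against lapatinib was 3, and 0 with all 12 libraries (0 of 22159 genes) and 1 without a variance trend (1556 of 21814). Without the 6 libraries in doubt it was 3 in Hs578T against PHA-767491, 4 against DMSO and 1 for additivity (each 0 with all). In SKBR7 it was then 3 against lapatinib, 2 against PHA-767491, 3 against DMSO, 1 for PHA-767491 against DMSO and 1 for additivity, and 3 for the difference between the lines. With libraries ranked anew it was 2 in Hs578T against DMSO, where 1306 of 9400 genes passed, and 2 in SKBR7 against lapatinib, where 3337 of 14170 did. In SKBR7 it was then 1 against PHA-767491 (2061 of 14170 genes), 2 against DMSO (2900 of 14170) and 1 for additivity (482 of 14170). In SKBR7 against PHA-767491 it was 1 with a stricter filter (294 of 7085 genes), with only the groups compared (383 of 21120) and with centred libraries (164 of 21747). Against DMSO it was 2 in SKBR7 with centred libraries (705 of 21949 genes), and for PHA-767491 against DMSO it was 2 with only the groups compared (438 of 22243). Without a variance trend it was 0 in SKBR7 against lapatinib (2 of 21450 genes) and against DMSO (0 of 21949). It was then 1 between the lines under lapatinib (2629 of 20215 genes), where all 24 libraries gave 2 (2773 of 21004). Members at least 0.5 below both drugs in SKBR7 were 0 with libraries ranked anew (1656 of 14170 genes) and without those in doubt (2090 of 16495). The stricter filter left JUND, and in most comparisons ATF3, without a value.

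With each library left out in turn, the number passing ranged between 0 and 5 in Hs578T against DMSO, 0 and 2 for lapatinib against DMSO, 0 and 1 for PHA-767491 against DMSO and 0 and 1 for additivity, in each case highest without DMSO III. The DMSO group then held only I and II, both in doubt. Of all genes, 6438 of 16489 then passed against DMSO, 5225 of 16471 for lapatinib, 3477 of 16566 for PHA-767491 and 216 of 16260 for additivity. The number of members passing ranged between 3 and 4 in Hs578T against lapatinib (4 without lapatinib II, with 6095 of 21228 genes). It was 0 or 1 in SKBR7 against PHA-767491 (1 without lapatinib II, with 685 of 21716 genes). In SKBR7 against DMSO it ranged between 0 and 2 (2 without co-treatment III, with 1799 of 20065 genes, or lapatinib II, with 1719 of 21914). Between the lines under lapatinib the range was 2 to 5 (5 without SKBR7 lapatinib III, with 4717 of 18500 genes). Members at least 0.5 above both drugs in SKBR7 numbered 1 to 2, and below both 0 to 2. Same-numbered samples mostly did not deviate together, with 5 of 18 pairs in each line correlated over 0.1. The highest r was 0.59, between SKBR7 co-treatment III and lapatinib III, and in Hs578T 0.37. A replicate block changed 1 of 112 calls, FOSB between the lines under lapatinib (2.15, limma adjusted p = 0.0160).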
